A study of Mus musculus and Homo sapiens with 22 samples.

Results

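Intergenic PROX1 peaks of the mouse liver that had no counterpart in fibroblasts and lay away from promoters are described here. A peak of the liver list was included when its summit lay more than 1 kb from every annotated transcription start site (TSS) and outside every annotated gene, and when the peak overlapped no peak of the fibroblast list. Of 50159 liver peaks, 39942 (79.6%) had a summit more than 1 kb from every TSS, 13690 (27.3%) were in addition outside every gene, and 12119 of these overlapped no fibroblast peak. The resulting intergenic liver-only peaks made up 24.2% of the liver list (95% Wilson interval 23.8 to 24.5%), 88.5% of its intergenic peaks (88.0 to 89.0%) and 12119 of the 105059 peaks in all 3 lists of the series. They were chosen by the presence and the absence of called peaks in liver and fibroblasts, so the lack of fibroblast binding is a property of the selection and not a result.

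The series measured PROX1 occupancy with CUT&RUN, in which an antibody tethers a nuclease to chromatin and the released fragments are sequenced, in 22 samples of 6 groups. Livers of untreated wildtype C57BL/6J mice aged 2 to 3 months gave 5 libraries with an antibody to endogenous Prox1 and 5 with IgG. Mouse embryonic fibroblasts (MEFs) of E13.5 C57BL/6N embryos carried lentiviral rtTA and a doxycycline-dependent tetO-FLAG-mmProx1 construct, and after 2 days of doxycycline at 2 µg/ml they gave 3 libraries with FLAG antibody and 3 with IgG. Hep3B, an established human hepatocellular carcinoma line, carried pLIX-Puro-hsPROX1 as puromycin-selected stable lines and was treated with the same dose for the same time, again with 3 FLAG and 3 IgG libraries. Liver is therefore the material with the native protein, whereas the other cells held a transgene, and tissue, antibody and origin of the factor changed together between liver and MEFs and cannot be told apart. Each list was called over all antibody libraries of a group, so there was no spread between replicates, and the depth of a library is unknown. Intervals cover counting error over peaks or genes and take these as independent. Many peaks stood in groups, so the intervals can be too narrow. The labelled tissue was checked on 12 hepatocyte markers: 12 of 12 had a liver peak within 1 kb of a TSS, 1 had one in MEFs, and 10 were the nearest gene of at least 1 intergenic liver-only peak. Over all protein-coding genes these shares were 26.6, 55.3 and 20.2%, in the same order. Such peaks are occupancy and not expression.

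PROX1 is a homeodomain protein of hepatocytes and lymphatic endothelium that can repress or activate transcription, depending on the cell type and its partners, and can be recruited by nuclear receptors such as HNF4α and LRH-1 (Nr5a2). Genes of the hepatocyte are controlled by enhancers that can lie far from the promoter and that combine sites for HNF4α, HNF1, C/EBP, FOXA, ONECUT and nuclear receptors. A peak outside genes is assigned here to the protein-coding gene with the nearest TSS, which is a positional label and not evidence of regulation.

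As examples with a motif match, the 101 bases centred on the summit are given for 12 peaks. They are in GRCm38 (mm10) on the plus strand, read 5′ to 3′ from the NCBI assembly. For each of 7 motifs, the peaks shown were the 1 or 2 most significant with a match in this window. Only peaks whose nearest gene stands in one of the functional gene lists described further on were used, with some chromosomes left out. A match was thus a condition of the choice. Over all intergenic liver-only peaks, the share of windows with a match ran from 1.30% for DR1 pairs to 10.6% for C/EBP sites. The peak upstream of Nr2f2 was the strongest for both FOXA and PROX1 sites and is shown once, with its PROX1 match in capitals. Capitals mark the match, which appears as its reverse complement where it lies on the minus strand. The HNF4-type site was CAAAGTCCA. The DR1 pair was AGGTCA repeated after 1 base with up to 1 mismatch, and the HNF1 pair was GTTAAT and ATTAAC 1 base apart with up to 2 mismatches. The ONECUT/CUX site was ATCGAT, the FOXA site TGTTTAC and the C/EBP site TTGCNNAA. The PROX1 site was AAGNCG and CTT 1 base apart with up to 1 mismatch.
Notch2, HNF4-type site (chr3:97988879-97988979): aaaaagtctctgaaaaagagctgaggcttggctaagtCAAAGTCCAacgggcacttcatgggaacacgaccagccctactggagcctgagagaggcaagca
Onecut1, HNF4-type site (chr9:74604545-74604645): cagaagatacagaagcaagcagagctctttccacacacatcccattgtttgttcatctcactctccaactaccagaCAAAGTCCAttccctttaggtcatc
Sqle, DR1 pair (chr15:59246499-59246599): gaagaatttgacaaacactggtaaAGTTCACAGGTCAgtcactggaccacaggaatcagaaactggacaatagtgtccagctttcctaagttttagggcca
Rxra, HNF1 pair (chr2:27626743-27626843): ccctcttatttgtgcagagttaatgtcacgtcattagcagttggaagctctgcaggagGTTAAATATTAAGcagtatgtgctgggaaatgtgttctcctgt
Ghr, HNF1 pair (chr15:3601829-3601929): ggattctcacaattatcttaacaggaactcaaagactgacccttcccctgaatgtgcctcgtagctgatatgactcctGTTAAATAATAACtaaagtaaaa
Saa1, ONECUT/CUX site (chr7:46737907-46738007): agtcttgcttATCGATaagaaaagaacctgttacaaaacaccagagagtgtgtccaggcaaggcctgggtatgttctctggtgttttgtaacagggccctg
Nr2f2, ONECUT/CUX site (chr7:69981483-69981583): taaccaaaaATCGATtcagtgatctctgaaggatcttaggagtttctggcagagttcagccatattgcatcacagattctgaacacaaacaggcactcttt
Cyp7a1, FOXA site (chr4:6246163-6246263): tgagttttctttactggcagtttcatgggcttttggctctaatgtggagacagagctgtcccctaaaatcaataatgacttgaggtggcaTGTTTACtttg
Saa1, C/EBP site (chr7:46745876-46745976): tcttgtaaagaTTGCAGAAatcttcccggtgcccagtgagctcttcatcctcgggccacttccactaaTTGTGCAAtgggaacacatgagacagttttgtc
Bhmt, C/EBP site (chr13:93648748-93648848): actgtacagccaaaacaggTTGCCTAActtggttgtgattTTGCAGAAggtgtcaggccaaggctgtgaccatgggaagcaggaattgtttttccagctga
Nr2f2, PROX1 site (chr7:70515579-70515679): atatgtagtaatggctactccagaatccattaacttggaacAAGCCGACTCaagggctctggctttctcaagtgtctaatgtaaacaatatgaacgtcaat
Ghr, PROX1 site (chr15:3608114-3608214): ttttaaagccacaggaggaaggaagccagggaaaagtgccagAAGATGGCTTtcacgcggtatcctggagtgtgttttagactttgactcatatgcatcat

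These 12 windows are all intergenic and range in summit −log10 p from 14.5 to 33.0, the values of 2 peaks nearest to Nr2f2 that lay 378388 bp downstream and 148894 bp upstream of its TSS. In the stronger of these the PROX1 match lay 4 bp from the summit and a FOXA match stood in the same 101 bases. The DR1 pair beside Sqle, which encodes squalene epoxidase of the cholesterol pathway, lay 20 bp from a summit that was 68532 bp upstream of the TSS. The Cyp7a1 peak, 29418 bp downstream of the TSS of the rate-limiting enzyme of bile acid synthesis, held its FOXA match 43 bp from the summit.

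The intergenic liver-only peaks had a median width of 479 bp (interquartile range 325 to 752 bp) and a median summit −log10 p of 12.8 (10.6 to 15.7). The −log10 p is the caller's own significance at the summit and ranged from 6.57 to 33.0 over these peaks. Intronic liver-only peaks more than 1 kb from a TSS (n = 21945) had a median of 12.4, and the 1571 intergenic liver peaks shared with MEFs had a median of 11.9. In the liver list as a whole, intergenic liver-only peaks made up 18.5% of the weakest of 4 equal groups by summit −log10 p, 23.7% and 26.1% of the middle groups and 28.5% of the strongest group. A peak body reached into a gene in 177 cases (1.46%). At the limits of the selection, a peak with its summit 1001 bp from a TSS of Crlf3 was included and one 1000 bp from Slc3a1 was not. A peak near Slc38a2 that touched a MEF peak with 0 bp between them was included, and one near Chic2 that overlapped a MEF peak by 1 bp was not. Most peaks were far from the second limit. The median gap to a MEF peak was 15219 bp, 767 peaks (6.33%) had one within 1 kb, and 1341 (11.1%) had none within 100 kb.

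The 10 strongest of these peaks had 9 different nearest genes. The highest summit −log10 p, 33.0, belonged to a peak at chr7:70514590-70516181 (mm10), 148894 bp upstream of Nr2f2, which encodes the orphan nuclear receptor COUP-TFII. It ranked 7 in the whole liver list. Second was a peak 22937 bp upstream of the carboxylesterase gene Ces1e, at 30.7, and a further peak 5265 bp upstream of the same gene reached 29.0 and was 4269 bp wide. A peak 2946 bp upstream of Saa1, an acute-phase protein of the liver, also reached 30.7, as did one 23965 bp downstream of the respiratory chain gene Ndufb3. The remaining 5 of the 10 strongest had values from 28.5 to 29.6. Their nearest genes were Selenop (the plasma selenoprotein, 32068 bp), the lipase gene Abhd2, the coreceptor gene Nrp1, the ubiquitin ligase gene Rnf125 and the sialyltransferase gene St3gal5. No MEF peak lay within 1 kb of any of the 10, and the nearest one was 1699 bp from the peak beside St3gal5. Ces1e and Saa1 belong to families of similar neighbouring genes, where reads can fit more than 1 copy. The authors' peak call set a floor on mapping quality, and its effect at such genes was not tested.

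Intergenic liver-only peaks became sparser with distance from genes. To set their number against the space available, the eligible genome was defined as all mm10 bases of known sequence that are outside every gene and more than 1 kb from every TSS, 1388 Mb in all, over which the peaks averaged 8.73 per Mb. The median distance to the nearest protein-coding TSS was 29200.0 bp (interquartile range 10173 to 84802 bp). Between 1 and 5 kb from a TSS there were 1519 peaks, or 24.6 per Mb (exact Poisson interval 23.3 to 25.8). The density fell to 20.7 per Mb at 5 to 10 kb, 17.4 at 10 to 20 kb, 13.3 at 20 to 50 kb, 10.1 at 50 to 100 kb, 6.44 at 100 to 200 kb, 3.18 at 200 to 500 kb and 1.16 beyond 500 kb. No neighbouring pair of these 8 classes had overlapping intervals. Within 50 kb there were 7609 peaks (62.8%, 61.9 to 63.6%), although these stretches are 32.1% of the eligible genome, so the density was 17.1 per Mb within 50 kb and 4.79 per Mb beyond it, a 3.56-fold difference.

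**Figure D1:**
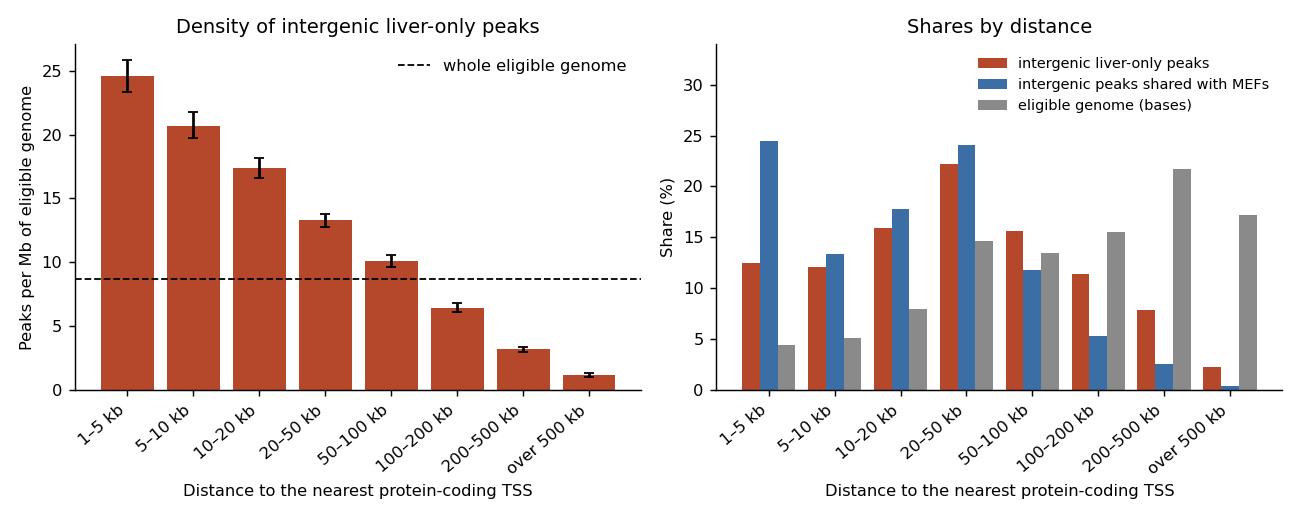
Intergenic liver-only peaks by distance to the nearest protein-coding TSS. Left, peaks per Mb of eligible genome in 8 distance classes with exact Poisson 95% intervals and the average of 8.73 per Mb (dashed), which the density crosses between 50 and 200 kb. Right, the percentage of intergenic liver-only peaks, of intergenic peaks shared with MEFs and of eligible bases in each class, with the shared peaks more concentrated at 1 to 5 kb.

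Intergenic peaks shared with MEFs lay closer to genes. Of these, 79.9% (77.8 to 81.8%) were within 50 kb of a protein-coding TSS, so the share of liver-only peaks was lower by 17.1 percentage points (Newcombe 95% interval 19.2 to 14.9). Their medians were 15718 bp for shared and 29200.0 bp for liver-only intergenic peaks. Peak strength did not follow distance: the median summit −log10 p was between 12 and 13 in all 8 distance classes of the liver-only peaks. In 67.1% of cases (8126 peaks) the peak was upstream of its nearest protein-coding TSS, and for 6682 (55.1%) the nearest TSS of any type belonged to a gene without a protein product. The selection leaves out gene bodies, which lie downstream of a TSS, so the upstream share is in part built in. Neither share was set beside that of the eligible genome or of the shared peaks. Among the autosomes, chromosome 19 had the highest density, 19.2 per Mb, and chromosome 14 the lowest, 6.87 per Mb. The X chromosome had 294 peaks at 2.68 per Mb and the Y chromosome 2 peaks. The eligible genome kept bases where reads cannot be placed with certainty, and the sex of the mice is not given in the labels.

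The peaks were unevenly spread over genes. Of 21842 protein-coding genes, 4421 (20.2%) were nearest to at least 1 intergenic liver-only peak and 3553 (16.3%) to one within 50 kb, while 148 genes were nearest to 10 or more and together held 2124 peaks. The gene with the most was Pik3r1, which encodes the regulatory subunit of the insulin-responsive phosphoinositide 3-kinase, with 36 peaks between 9510 and 324176 bp from its TSS. Gadd45g, a stress-response gene, followed with 31 and Onecut1, a hepatocyte transcription factor gene, with 30, of which 4 were within 50 kb in each case. Bcor (29 peaks), a transcriptional corepressor gene on the X chromosome, and Plpp3 (23), a lipid phosphatase gene, had none within 50 kb. Sall1 (28), Tbl1xr1 (26), Maf (24) and Id2 (23) encode nuclear regulators, and Adgrl2 (28) encodes an adhesion receptor. The order by density was another: Adgrl2 and Tbl1xr1 had 1.87 and 1.99 Mb of eligible genome nearest to them and so 15 and 13 peaks per Mb, against 97 per Mb for Gadd45g and 87.9 for Plpp3.

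Many peaks stood in groups. When neighbouring summits were joined over short gaps (the limit stands in the processing summary), 8252 peaks (68.1%) fell into groups of 2 or more and 3867 (31.9%) stood alone. Such shares were not taken for other peaks, and the part of the density near genes in them was not tested. There were 403 groups of 5 or more, with 2625 peaks (21.7%). The largest group held 20 peaks over 62.6 kb beside Rab11fip4, an endosomal adaptor gene, at 55692 to 118332 bp from its TSS, with a median summit −log10 p of 14.9. A group of 16 spanned 48.1 kb around Tsc22d3 (GILZ), a glucocorticoid-induced gene, and 3 groups of 14 lay beside Id2, Kcnk5 (a potassium channel gene) and Selenop. The Selenop group was the most compact of the 5, at 37.2 kb, and held the peak of 29.6 described above. In the Tsc22d3, Id2, Kcnk5 and Selenop groups every liver peak between the first and last summit was an intergenic liver-only peak. In the Rab11fip4 group 20 of 22 were. Of all intergenic liver peaks 88.5% were liver-only, and the 5 groups were chosen for holding the most such peaks, so high shares are in part built in.

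Genes of hepatocyte function were the nearest gene far more often than the average gene. Gene function was described with 24 lists of 605 genes in all, some of which stand in more than 1 list, and of these 605 genes 325 (53.7%) were nearest to an intergenic liver-only peak, against 20.2% of all protein-coding genes. Across 11 lists of hepatocyte function, from transcription factors to amino acid breakdown, the share of genes nearest to such a peak ranged from 50.0 to 80.8% and the density from 29.8 to 89.4 per Mb, against 8.73 per Mb for all genes. Across 8 lists of other cell types, biliary cells included, the share ranged from 20.8 to 60.9% and the density from 3.56 to 15.7 per Mb. Lists differ in the space around their genes, and peaks were denser near any TSS, so the density was also taken within 50 kb alone. There, the hepatocyte lists ranged from 67.3 to 147 per Mb and the lists of other cell types from 5.85 to 40.4 per Mb, with 17.1 per Mb for all genes. The ranges of the hepatocyte lists and of the other cell types did not overlap on either density scale, whereas the shares of genes did. Lists of nuclear receptors, liver hormones, circadian clock, Wnt signalling and oncofetal genes were counted in neither set. Of these, the nuclear receptors, at 9.52 per Mb and 33.6 within 50 kb, fell inside the ranges of the other cell types. The number of genes per list limits the precision of each value.

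Secreted plasma proteins had the highest density, with 117 peaks nearest to 29 of 37 genes, or 89.4 per Mb (exact Poisson interval 74.0 to 107). Alb, which encodes serum albumin, had 7 peaks, all upstream, at 3523, 10823, 13158, 21590, 29745, 35484 and 46147 bp from the TSS, with summit −log10 p of 15.3, 17.7, 16.4, 21.8, 17.6, 19.5 and 23.6. The farthest of the 7 was the strongest. Mup20, a major urinary protein gene in a cluster of near-identical copies, had 17 peaks and Gc, the vitamin D binding protein gene, had 15, the strongest at 25.8. Azgp1, which encodes a plasma glycoprotein, had 7 peaks in 0.0174 Mb of eligible genome. Complement and coagulation genes were nearest to 49 peaks, with 21 of 37 genes reached. Fga, for the fibrinogen alpha chain, had 5 peaks and C3, the central complement component, had 4, all of the latter within 5034 bp.

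Metabolic genes followed. Fatty acid oxidation and ketogenesis reached 85.9 per Mb (66.7 to 109), led by Pdk4 (13 peaks), a kinase that restrains pyruvate oxidation, Acsl1 (12), a fatty acyl-CoA synthetase, and Fabp1 (11), the liver fatty acid binding protein. Cholesterol and fatty acid synthesis had 75 peaks at 67.2 per Mb, with 15 nearest to Sc5d, a late enzyme of cholesterol synthesis, 9 to Elovl6 and 6 each to Scd1 and Insig1. Bile acid synthesis and transport had 59 peaks at 58.6 per Mb. Akr1d1, a bile acid reductase, had 13, and Cyp8b1, which sets the cholic acid share, had 8 on both sides of the gene between 2408 and 10479 bp, with summit −log10 p from 8.36 to 19.8. Cyp7a1 had 6, of which 1 was upstream at 3103 bp with a summit −log10 p of 10.0. The other 5 were downstream at 12568 to 36432 bp, and their summit −log10 p ran from 14.0 to 23.7.

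Drug-metabolising cytochromes P450 had the largest share of genes reached, 21 of 26 (80.8%), with 55 peaks. Cyp2a5 had 8 and Cyp3a11 had 7, and both stand in clusters of similar genes, while Cyp2e1 had 5. Glucose production and glycogen had 132 peaks, of which 22 were nearest to Irs2, an insulin receptor substrate, 21 to Ppp1r3b, the hepatic glycogen-targeting subunit of protein phosphatase 1, 14 to Sik1 and 12 to Foxo1. None of the Foxo1 peaks was within 50 kb, whereas 13 of the Ppp1r3b peaks were. Amino acid breakdown had 51 peaks, led by the tyrosine aminotransferase gene Tat with 9 within 14033 bp, and Bhmt and Kynu with 6 each. Urea cycle and ammonia genes had 35, of which Glul and Cps1, the ammonia-fixing enzymes of the pericentral and periportal liver, had 8 each and Arg1 had 7. Lipoproteins and lipid export had 50, with 12 at Abca1, the cholesterol exporter gene, and 8 each at Apob and Lpl.

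Regulators of the hepatocyte were reached as well. Of 20 hepatocyte transcription factor genes, 15 were nearest to a peak and 132 peaks were assigned to them, 44 per Mb (36.8 to 52.2). Onecut1 held 30, Foxa2, a pioneer factor of the liver, 17, Gata6 15 and Nr5a2, for LRH-1, 13. Hnf4a had 1 peak, 25277 bp downstream of its TSS, with a summit −log10 p of 14.6 and a width of 2626 bp. The nuclear receptor list was close to the background on the first scale, at 9.52 per Mb (7.46 to 12.0) with 17 of 38 genes reached, and above it within 50 kb, at 33.6 per Mb (23.0 to 47.5). Nr2f2 had 19 peaks, none within 50 kb. Ppara, the fasting regulator of fatty acid oxidation, had 7, all upstream between 4538 and 27137 bp, with summit −log10 p from 9.24 to 16.5.

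The Prox1 gene itself was nearest to 10 peaks, all downstream of its TSS and between 56440 and 122053 bp from it. Their summit −log10 p ran from 7.53 to 25.7, and the strongest pair, at 61590 and 62588 bp, reached 25.7 and 25. Sox9, a biliary regulator, was nearest to 22, of which 6 were within 50 kb and the farthest was 834358 bp away. Both counts depended on genes without protein products around them: with protein-coding genes and TSSs alone in the selection, 23 peaks were nearest to Prox1 and 43 to Sox9. With the stronger peaks of the liver list alone, 6 and 13 were. Among the other genes the study names, Myc had 6 peaks, Klf15 4, Prrx1 and Myt1l 2 each, and Pparg and Ebf2 1 each, while Ttr, Hand2, Krt19, Onecut2 and Tjp1 had none. The space around Ttr, the transthyretin gene, is 0.00828 Mb and around Hand2 0.382 Mb, so a count of 0 says little for Ttr.

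Over all distances, the density of lists of other cell types lay at or below the background except for adipocyte, lymphatic endothelial and biliary genes. By the share of genes nearest to a peak, the other 5 lists lay at or above the 20.2% of all genes. Their shares ran from 20.8% for T and B cell genes to 43.5% for cardiac regulators. These 5 lists also had more eligible genome per gene, 105 to 238 kb against 63.6 kb, and the part of this was not tested. Mesenchymal and fibroblast regulators had 26 peaks, 3.89 per Mb (2.54 to 5.70), skeletal muscle regulators 4.36, neuronal regulators 4.48, cardiac regulators 5.65 and T and B cell genes 3.56, and the intervals of all 5 ended below 8.73. Such intervals can be too narrow, since peaks stood in groups and single genes held many of them. Of the 31 cardiac peaks, 15 were nearest to Gata6. Within 50 kb, the intervals of the skeletal muscle, neuronal and T and B cell lists reached the background of 17.1 per Mb, while those of the mesenchymal and cardiac lists ended at 16.1. Msx1, a mesenchymal homeobox gene, had 6 peaks and Zeb2 had 4, none of the latter within 50 kb. Adipocyte regulators had 15.7 per Mb, led by Cebpb with 11 peaks, Klf4 with 10 and Cebpa with 9, of which the C/EBP genes are also used by the liver. Within 50 kb the adipocyte list had 25.6 per Mb, with an interval from 15.6 to 39.5 that included the background, and no peak nearest to Cebpb or Klf4. Lymphatic endothelial genes had 15.1 per Mb over all distances, and 19 of their 39 peaks were those of Nr2f2. Within 50 kb they had 7.61 per Mb, from 4 peaks, with an interval from 2.07 to 19.5 that included the background. Biliary cell genes had 61 peaks at 15.7 per Mb (12.0 to 20.2) and 40.4 per Mb (27 to 58.0) within 50 kb, both above the background. Of these 61 peaks Sox9 and the Notch target gene Hes1 held 22 and 17.

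**Figure D2:**
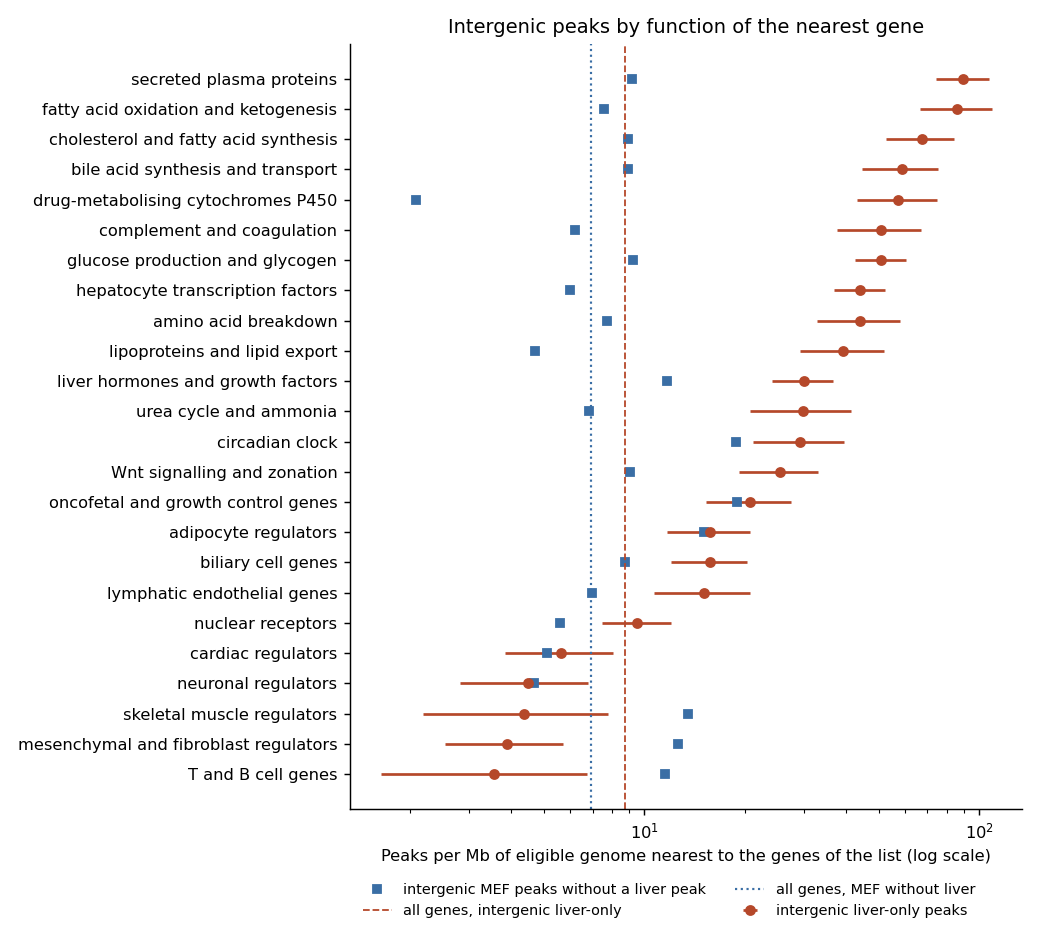
Peaks per Mb of eligible genome nearest to the genes of each of 24 functional lists, on a log scale. Circles are intergenic liver-only peaks with exact Poisson 95% intervals, squares are intergenic MEF peaks without a liver peak, and vertical lines are the values for all protein-coding genes, 8.73 and 6.95 per Mb. Liver-only peaks ran from 3.56 per Mb for T and B cell genes to 89.4 per Mb for secreted plasma proteins.

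In the intergenic peaks of the MEF list, the ranges of the hepatocyte lists and of the lists of other cell types overlapped. MEF peaks in the same kind of position that overlapped no liver peak numbered 9650, or 6.95 per Mb. Across the hepatocyte lists they ran from 2.08 per Mb for cytochromes P450, with 2 peaks, to 9.22 for glucose production and glycogen. Secreted plasma proteins had 9.17 and hepatocyte transcription factors 6.00. Lists of other cell types ran from 4.69 for neuronal to 15.1 for adipocyte regulators. Mesenchymal and fibroblast regulators had 12.6, with 84 peaks against the 26 liver-only peaks of that list. The highest values of all lists were 18.9 for oncofetal and growth control genes and 18.8 for circadian clock genes. No intervals were taken for these MEF values. Within the intergenic peaks of the liver, the liver-only share ran from 82.4% (69.7 to 90.4%) for circadian clock genes to 100.0% (89.0 to 100.0%) for cardiac regulators. It was 98.3% (94.1 to 99.5%) for secreted plasma proteins, 94.3% (89.1 to 97.1%) for hepatocyte transcription factors and 96.3% (81.7 to 99.3%) for mesenchymal and fibroblast regulators, against 88.5% overall. The MEF list reaches lower than the liver list, with areas from 200 against 500, so densities of the lists are given side by side and were not tested against each other.

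Genes with more intergenic liver-only peaks more often had a PROX1 peak at their own promoter. A promoter peak, with its summit within 1 kb of a protein-coding TSS, was present in the liver at 26.6% of all protein-coding genes, and at 21.1% (20.5 to 21.7%) of genes with no intergenic liver-only peak. The share was 42.4% with 1 such peak, 50.3% with 2 to 4, 58.6% with 5 to 9 and 68.2% (60.4 to 75.2%) with 10 or more. In MEFs, where 55.3% of genes had a promoter peak, the share was 53.0% with none and 70.9% (63.2 to 77.7%) with 10 or more. In Hep3B, where 48.8% of 15748 genes with the same symbol in both species did, it was 48.0% with none and 63.9% (55.5 to 71.6%) with 10 or more. From 1 to 4 peaks the MEF share stayed near 63%, and the rises of the 3 lists were not tested against each other. Genes with more peaks also had more space, from 45.4 kb of eligible genome per gene with none to 344 kb with 10 or more, and the part of this in the rise was not tested.

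**Figure D3:**
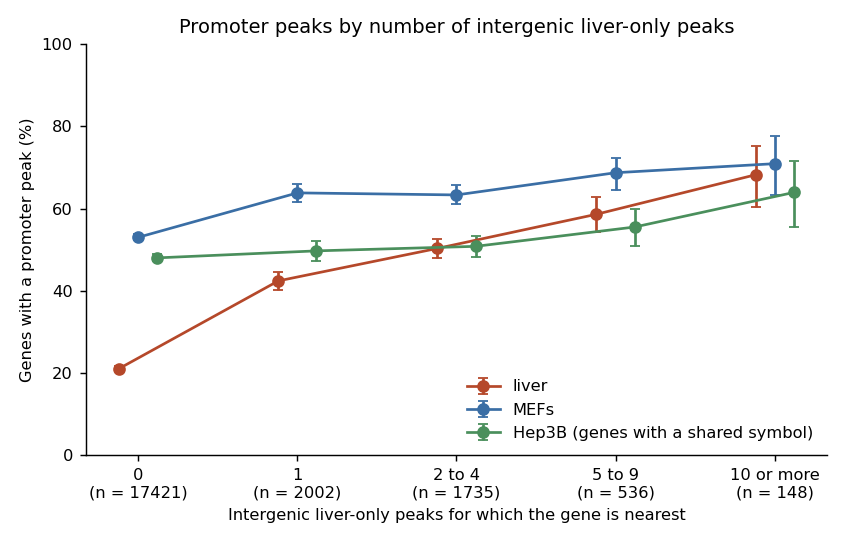
Share of protein-coding genes with a PROX1 peak at the promoter in liver, MEFs and Hep3B (points, with 95% Wilson intervals) by the number of intergenic liver-only peaks for which the gene is nearest. In liver the share rose from 21.1 to 68.2%, in MEFs from 53.0 to 70.9% and in Hep3B from 48.0 to 63.9%.

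Sequences of hepatocyte factors marked the summits. Motifs were counted on both strands in the 101 bases around the summit, in windows of the same width centred 1000 bp to either side (flanks), and in 277538 windows tiled over the eligible genome. The nuclear receptor site AGGTCA was in 2250 of 12119 windows (18.6%, 17.9 to 19.3%), against 6.51% of flanks and 5.27% of the eligible genome. C/EBP sites were in 10.6% against 4.22% of flanks, FOXA sites in 4.22% against 1.34% and HNF1 pairs in 2.64% against 0.536%. The HNF4-type site was less frequent, in 1.86%, but had the highest ratio to flanks, 12.9-fold, and to the eligible genome, where 0.119% of windows held it. ONECUT/CUX sites, counted as ATCGAT alone, were in 1.39% (169 peaks) against 0.297% of flanks and DR1 pairs in 1.30% against 0.231%. At least 1 of 6 kinds (AGGTCA, HNF4-type, ONECUT/CUX, FOXA, HNF1 and C/EBP) was in 4289 windows (35.4%, 34.5 to 36.2%) and 12.6% of flanks, and 2 or more kinds were in 3.75% and 0.462%. DR1 pairs hold AGGTCA or a variant of it, and the HNF4-type site resembles a DR1 pair, so these counts are not independent.

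Several other sequences were closer to their flanks. NFI pairs (TTGGC and GCCAA 5 bases apart, up to 1 mismatch) were not, with 0.767% of summits against 0.227% of flanks. AP-1 sites (TGANTCA) were in 4.42% against 3.01%, GATA sites (AGATAAG) in 2.54% against 1.27%, STAT5 sites (TTCNNNGAA) in 3.98% against 3.25%, and NF-Y sites (CCAAT) in 15.5% against 14.3%. TEAD sites (GGAATG) were in 5.79% against 5.45%, the E-box CATCTG in 7.71% against 7.72%, and RUNX sites (TGTGGTT) in 2.12% against 2.69%. The PROX1 site was in 2.63% (2.36 to 2.93%) of summits, 2.25% of flanks and 1.69% of the eligible genome. Its excess over flanks was absent without mismatches, as given further on. The study mapped a database motif of PROX1 over whole peaks, so these shares cannot be set against its motif-containing peaks. Summits had a GC content of 46.8%, flanks 44.2% and the eligible genome 40.6%, and 12.3% of summits lay in bases marked as repeats in the assembly, against 43.3% of tiled positions. The parts of base composition in any motif share and of read placement in the repeat share were not tested.

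**Figure D4:**
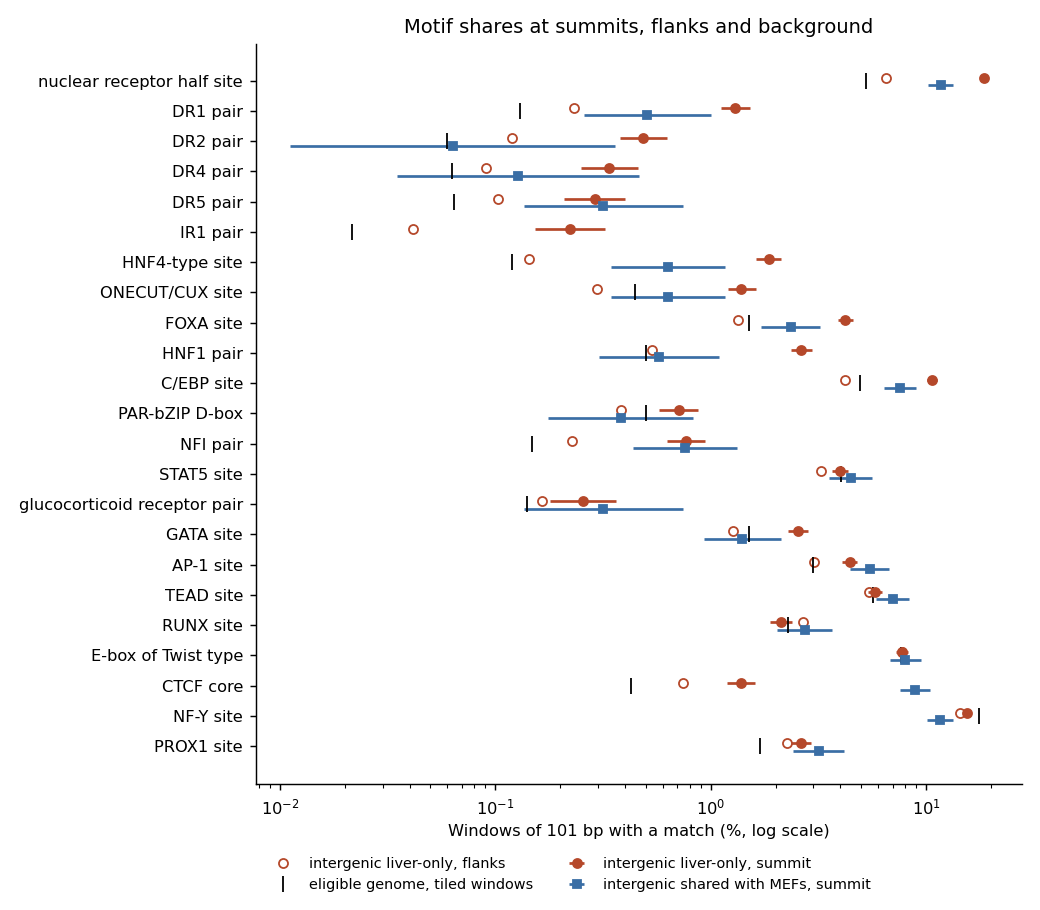
Percentage of 101 bp windows with a match to each of 23 motifs, on a log scale. Filled circles are summits of intergenic liver-only peaks and squares summits of intergenic peaks shared with MEFs, both with 95% Wilson intervals, open circles are flanks of the liver-only peaks and ticks are tiled windows of the eligible genome. AGGTCA was in 18.6% of liver-only and 11.7% of shared summits, and the CTCF core in 1.38% and 8.91%.

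Liver-only and shared intergenic peaks differed in these sequences. AGGTCA was in 11.7% (10.2 to 13.4%) of the 1571 shared summits, 6.85 percentage points lower than in liver-only summits (Newcombe 95% interval 5.04 to 8.51). NF-Y sites were lower in shared peaks by 3.88 points (2.09 to 5.51), C/EBP sites by 3.05 (1.54 to 4.38), HNF1 pairs by 2.07 (1.49 to 2.47), FOXA sites by 1.87 (0.930 to 2.61), HNF4-type sites by 1.22 (0.643 to 1.61) and GATA sites by 1.14 (0.382 to 1.70). DR1 pairs were lower by 0.795 points (0.268 to 1.13) and DR2 pairs, AGGTCA repeats 2 bases apart, by 0.423 (0.108 to 0.573). With summits within 100 bp counted as shared, the NF-Y interval included 0 (2.24 points, -0.566 to 4.64), and with the stronger liver peaks alone the C/EBP interval did (1.79, -0.627 to 3.81). The intervals for GATA, DR1 and DR2 sites also included 0 under some other choices of the peaks. ONECUT/CUX sites were lower by 0.758 points (0.192 to 1.13), a difference whose interval included 0 under 3 other ways of choosing the peaks. This holds for ATCGAT alone. ATCAAT, which differs from it at 1 base and was not counted, was in 9.70% of liver-only and 3.56% of shared summits. The CTCF core (CCANNAG and GGC 2 bases apart) went the other way, with 8.91% of shared and 1.38% of liver-only summits, a difference of -7.53 points (-9.06 to -6.20). For AP-1 sites the difference was -1.05 points, with an interval from -2.34 to 0.0374 that included 0 and a sign that changed when weak MEF peaks were left out. For PROX1 sites it was -0.550 points (-1.58 to 0.267). Shared summits were richer in GC (51.6%), and the part of composition in these differences was not tested.

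Intronic liver-only peaks were compared in the same way. AGGTCA was in 18% of their summits, a difference of 0.603 points with an interval from -0.251 to 1.47. The intervals also included 0 for FOXA (0.338 points), HNF1 (0.221) and PROX1 sites (0.208). They excluded 0 for C/EBP (0.967 points, 0.30 to 1.65), HNF4-type (0.371, 0.0894 to 0.669), ONECUT/CUX (0.351, 0.110 to 0.609), TEAD (0.529, 0.0257 to 1.05) and NF-Y sites (1.10, 0.316 to 1.90), each higher in the intergenic peaks. These intervals were not adjusted for the number of motifs, 23.

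Matches gathered at the summit in different shapes. AGGTCA reached 2.67 matches per kb in the central 20 bp and fell to 0.774 per kb at 190 to 250 bp. HNF1 pairs had 47 matches in the central 20 bp but 84 and 98 in the bins centred 40 bp to the left and right, and FOXA sites had 82 in the centre, 140 in the bin centred 20 bp to the left and 114 in that to the right. PROX1 sites had 90 matches in the central bin and 65 and 60 in the neighbouring ones. In shared peaks the CTCF core rose to 1.11 matches per kb within 30 bp of the summit, 10.00 times the value at 190 to 250 bp, against 0.180 per kb in liver-only peaks. These profiles were examined without a test.

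**Figure D5:**
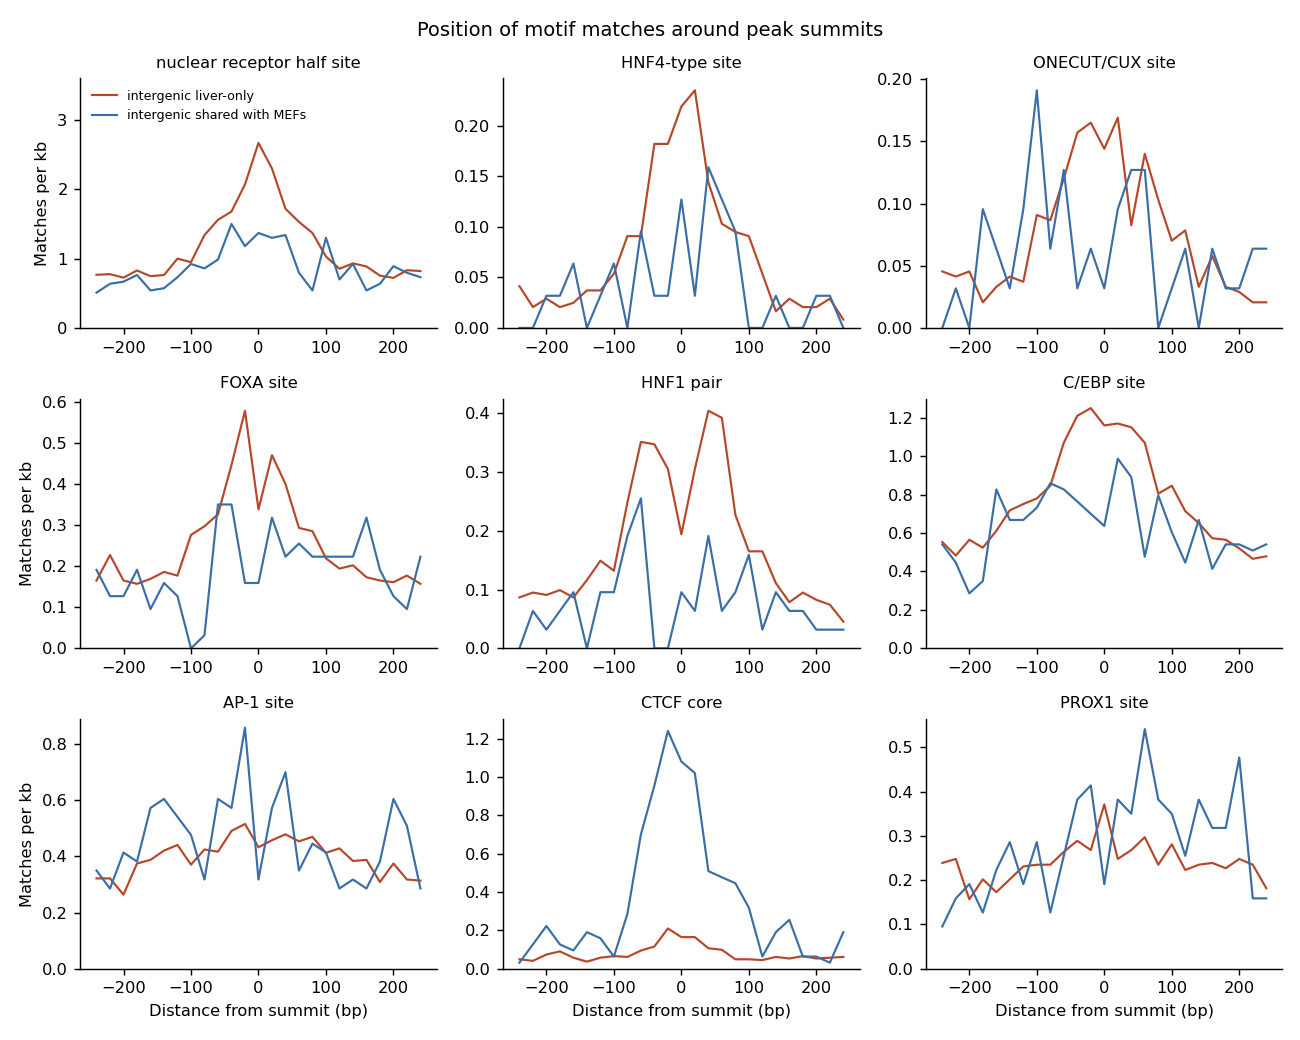
Matches per kb in bins of 20 bp within 250 bp of the summit for 9 motifs in intergenic liver-only peaks and in intergenic peaks shared with MEFs, without error bars. AGGTCA peaked at 2.67 per kb in the central bin of liver-only peaks, HNF1 pairs dipped to 0.194 per kb there, and the curves of the 1571 shared peaks rest on few matches for rare motifs.

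Motif shares changed little with peak strength. Of 4 equal groups of the intergenic liver-only peaks by strength, in the weakest (summit −log10 p up to 10.6) 33.8% held at least 1 of the 6 kinds and in the strongest (15.7 and above) 35.9%. AGGTCA went from 17.6 to 19.2%, a difference of 1.58 points with an interval from -0.368 to 3.54. GATA sites rose from 1.88 to 2.81%, by 0.924 points (0.161 to 1.70), and CTCF cores were lower in the strongest group by 0.891 points, from 1.65 to 0.759%. Width and strength come from the same signal, and the median width was 324 bp in the weakest and 910.5 bp in the strongest group. By distance, CTCF cores were in 1.83% of peaks within 50 kb of a TSS and 0.621% of those beyond, a difference of 1.21 points (0.815 to 1.58), while C/EBP sites were in 10.0% and 11.6%, a difference of -1.61 points (-2.78 to -0.473). For AGGTCA, HNF4-type, ONECUT/CUX, FOXA, HNF1 and PROX1 sites the interval between near and far peaks included 0.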

How the data were processed

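The data were the 3 peak lists deposited for liver, MEFs and Hep3B, each called by the authors with Genrich over all antibody libraries of a group after alignment with Bowtie2 within nf-core/cutandrun, to mm10 or hg38. The calls set a floor on mapping quality, which leaves out reads that fit several places about equally well. The methods describe sites relative to IgG, whereas how IgG entered the calls is not given in the sources used here. The deposited score is capped by the caller and was left aside. The deposited signal sums significance over a peak, and the deposited −log10 value used here is the p at the summit, whose position comes from the deposited offset. The authors did not scale the lists to each other, and no depth per sample is known.

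The peaks described, the gene lists, the motifs and the alternatives were chosen with earlier results of these data known. Annotation was GENCODE M21 (mouse) and 44 (human, for Hep3B promoters by shared symbol). Peaks overlapped at 1 bp or more. Distances ran from the summit to the nearest TSS of a protein-coding transcript. Shares carry 95% Wilson intervals, differences Newcombe intervals and densities exact Poisson intervals, computed in Python 3.11.15 with numpy 2.4.6, pandas 2.3.3 and scipy 1.17.1. Motif scans, overlaps and distances were tested on simulated data. Named genes were the 10 strongest peaks' genes, the 10 genes with most peaks, up to 4 per list by number of peaks, genes the study names, the strongest peaks with each leading motif, the 5 largest groups (neighbouring summits within 12.5 kb) and the peaks at the limits of the selection. Alternatives covered the definition of sharing, peak strength and width, TSS limit, gene types, windows and mismatches.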

Additional observations from a re-analysis of the deposited data

How the results depend on the processing

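Leaving out a replicate was not possible, since each list pools its libraries. No paired analysis was possible because the lists hold no column per replicate. Without replicates or depth, weak peaks absent from a list cannot be told from unbound sites. Counting only liver peaks above the list's median −log10 p left 6836 intergenic liver-only peaks with a median −log10 p of 15.3 and 41.7% of list genes nearest to one. That share was 41.8% with a TSS limit of 5 kb and 45.5% with the nearest gene within 50 kb. The median distance was 28116 bp with summits within 100 bp counted as shared, 28256 bp with only MEF peaks of an area at or above the lowest liver area, 31587 and 39529 bp with TSS limits of 2 and 5 kb, 31644 bp with protein-coding genes only and 30688 bp from outermost gene starts. The share within 50 kb under the first 5 of these was 63.9, 63.8, 61.2, 56.1 and 61.1%.

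The ONECUT/CUX difference was 0.558 points with MEF peaks widened by 200 bp, 0.804 with the MEF area limit and 0.464 with stronger liver peaks, and each interval then included 0. The AP-1 difference was -1.16, -2.08, -1.29, -1.61 and -2.07 points, with intervals below 0, for widened MEF peaks, summits within 100 bp, an overlap of 50% of the shorter peak and TSS limits of 2 and 5 kb, and 0.182 with the MEF area limit. The AGGTCA difference kept its sign and an interval above 0 under all 10 alternatives for the choice of peaks, as did HNF4-type, FOXA and HNF1 sites, while the CTCF core kept an interval below 0. These 4, like NF-Y, C/EBP, GATA (intervals with 0 under the MEF area limit and stronger liver peaks), DR1 (100 bp summits and MEF area limit) and DR2 (4 alternatives), were added after seeing the data. Against flanks, the CATCTG difference became 0.186 points with 25 bp on each side. With tiled windows in place of flanks it was 0.0503, STAT5 -0.0507 and NF-Y -2.09. Without mismatches the PROX1 difference was -0.00413, and the intervals of DR2, DR4 and DR5 pairs (AGGTCA repeated after 2, 4 and 5 bases), inverted repeats 1 base apart (IR1) and NFI pairs included 0 (0.033, 0.00413, 0.0206, 0.0165 and 0.0248 points). Lymphatic endothelial genes fell to 0.445 of the density of all genes within 50 kb, an alternative chosen after seeing the data. That value rests on 4 peaks, and the interval of the density included that of all genes. The causes were not tested.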

Other observations

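Pairs of AGGTCA were counted by orientation and spacing from 0 to 8 bases with up to 1 mismatch, over all of which the summits of intergenic liver-only peaks held more than their flanks. Direct repeats with 1 base between them were the most frequent, in 158 peaks (1.30%, against 0.231% of flanks), followed by direct repeats with no base between them in 92 and with 2 bases in 59. Inverted repeats were most frequent with 8 bases (31 peaks) and everted repeats with 1 base (24 peaks).

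All 2080 sequences of 6 bases, with reverse complements merged, were also compared between summits and flanks. AGGTCA had the highest ratio among the 1457 present in at least 200 intergenic liver-only peaks, at 2.85. TGCCAA (13.7% of summits against 4.97% of flanks) and CTTGGC (14.3 against 5.52%) were among the 5 highest ratios and hold the TTGGC of an NFI site. The full NFI pair, TTGGC and GCCAA 5 bases apart with up to 1 mismatch, was in 0.767% against 0.227%, but without mismatches the difference was 0.0248 points with an interval from -0.00497 to 0.0769. ATCAAT, which differs at 1 base from the ATCGAT counted here as the ONECUT/CUX site, was in 9.70% of summits, 4.14% of flanks and 3.56% of summits shared with MEFs. The ONECUT/CUX counts above do not include ATCAAT. These 6-base sequences were examined after the motif shares were known.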
